A study of Mus musculus with 9 samples.

Results

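The genes of the constitutive proteasome were measured in the retina of albino mice kept for 14 days in the dark or under white LED light of a warm or a cold colour. They were taken by symbol: Psma1 to Psma7, Psmb1 to Psmb7, Psmc1 to Psmc6 and Psmd1 to Psmd14. That gave 34 genes of 18193 with a probe set of 1 gene symbol, of which 14 code for the core and 20 carry symbols of the cap. Each gene was read from its brightest probe set over the 9 arrays, and all 34 were among the 12765 genes bright enough to be tested.

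The arrays (Affymetrix mouse genome arrays) came from female mice of the BALB/c strain (Babl/c in the labels) at 10 weeks of age. No allele or drug is named for any group. The control group (3 arrays) was housed in the dark, and the other groups (3 arrays each) under warm white LEDs (colour temperature 2954K) or cold white LEDs (7378K). Both LED groups met 1000 lx for 12 h of every day. The labels give the controls the same on and off hours with no illuminance. Each array stood for 1 pool of 3 right-eye retinas, separated from the pigment epithelium, so n = 3 pools per group. Albino eyes lack the pigment that screens light, which limits what the groups model. Arrays are named here by group and replicate number.

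The proteasome is the cell's main machine for breaking down proteins that carry a ubiquitin tag. Its core is a barrel of stacked rings: outer rings of alpha subunits gate the entrance, and inner rings of beta subunits hold the active sites. The cap at the end of the barrel binds the tagged protein, removes the ubiquitin and unfolds the chain, using a ring of ATPases in its base and a lid of further subunits. Photoreceptors make and renew large amounts of protein throughout life. When proteasome activity is short, the transcription factor NFE2L1 raises the genes of the whole complex together.

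Values are log2 signals, so a difference of 1 is a doubling, and signals of different probe sets are not comparable as amounts. A gene was called changed where limma gave an adjusted p (Benjamini-Hochberg over 12765 genes) under 0.05. Beside it stands whether the ranges overlap: they do not where all 3 arrays of one group lie above all 3 of the other.

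A measure of RNA and labelling differed between arrays and moved with many of the values below. It is the log2 signal at the 3' end of the Gapdh and beta-actin transcripts minus that at their 5' end, averaged over both. It was 0.33, 0.20 and 0.42 on the control arrays, 2.78, 0.21 and 1.05 on the 2954K arrays, and 1.80, 1.67 and 1.55 on the 7378K arrays. The mean was 1.36 higher under 7378K than in controls (exact permutation test, two-sided p = 0.1, the smallest that 3 against 3 arrays allow). Array 2954K 2 thus resembled the controls in this measure and 2954K 1 lay beyond every 7378K array. The same measure on dap, a bacterial control transcript, was 1.08 to 1.72 in controls, 1.12 to 2.88 under 2954K and 2.66 to 2.76 under 7378K. Of the marker lists, the summed signal of 5 microglial genes was 10.43 to 10.82 in controls, 12.22 to 12.49 under 2954K and 12.57 to 12.69 under 7378K, with 4 of 5 risen in both LED groups. The 6 rod markers summed to 16.47 to 17.02 over all arrays, and 3 of 6 had fallen under 7378K. The 3 Müller glia markers summed to 14.43 to 14.88, with 2 risen in both LED groups. The 4 pigment epithelium and melanocyte markers summed to 13.24 to 13.93, most of it from Rlbp1 (13.01 to 13.50), which Müller glia also express. Of the others, Rpe65 ran from 9.73 to 11.83, Tyrp1 from 7.33 to 12.15 and Mlana from 4.73 to 10.56 over the arrays, the last pair highest on 2954K 3. Lens genes summed to 7.41 to 16.67 in controls, 6.34 to 14.14 under 2954K and 4.52 to 11.88 under 7378K, highest on the third array of each group, and the 2 muscle genes tested to 8.09 to 10.12. The part of these cells and of RNA quality in the values below was not tested. Some values are also given with the 3' minus 5' difference in the model.

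RefSeq promoter windows (build GRCm38.p6, from 250 bases before to 50 after a gene's start) were given for 28 of the 34 genes, in 30 windows. They were searched on both strands for TGACNNNGC, the core of the element that NFE2L1 and its relatives bind, and for CCAAT; a match of one may overlap a match of the other. TGACNNNGC was found in 5 of 30 windows (16.7%), those of Psmb5, Psmb6, Psmc6, Psmd9 and Psmd12, against 4071 of 32851 windows of all genes (12.4%). CCAAT was found in 11 of 30 (36.7%), against 37.4% of all windows. The sites of Psmb5, a catalytic subunit, and Psmd9, an assembly chaperone with one of the lowest values under 7378K, are shown 5′ to 3′ in the direction of the gene, with the match in capitals. They lie at chr14:54618023-54618062 on the minus strand and chr5:123228139-123228178 on the plus strand, and the matches begin 47 and 31 bases before the start.
Psmb5: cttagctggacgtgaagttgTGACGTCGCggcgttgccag
Psmd9: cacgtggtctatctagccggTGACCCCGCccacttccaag

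No subunit gene was called changed under 7378K light against control (0 of 34), where 3.52% of all genes tested were called. Of the 34, 14 had higher means than in controls and 20 had lower means, with a median difference of -0.15 against 0.04 over all genes. The split was 9 higher and 25 lower with probe sets without a name suffix where a gene had one, and its brightest set otherwise. It was also 9 and 25 with the dap measure in the model. The values below control included Psmd7, Psmd9, Psmd8 and Psmb7, and those above it included Psmc2, Psmc4 and Psma6. In bulk RNA, fewer cells of a type and less RNA per cell cannot be told apart. At an unadjusted p under 0.05 7 of 34 were higher and 14 lower, beside 13.8% and 8.81% of all genes. The ranges of 9 subunits lay wholly above control (21.6% of all genes) and those of 16 wholly below (14.8%). The smallest adjusted p was 0.053, for Psmb7.

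**Figure D1:**
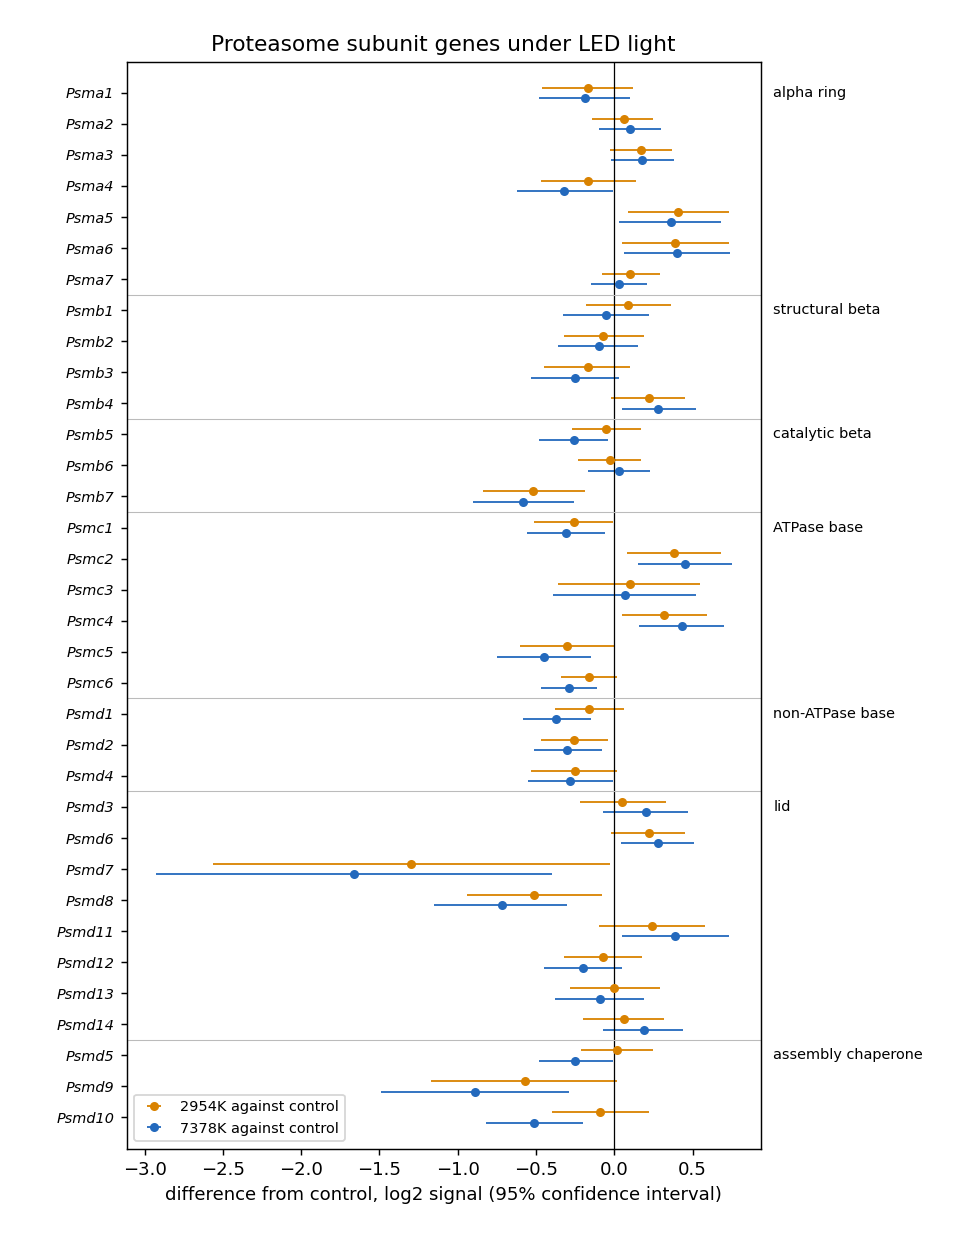
Difference from control in log2 signal of each of the 34 subunit genes, ordered by role, for 2954K and 7378K (points, with 95% confidence intervals from limma; n = 3 pools per group). Psmd7, Psmd9, Psmd8 and Psmb7 lie lowest under 7378K, from -1.66 to -0.58, and Psmc2, Psmc4 and Psma6 lie highest, at 0.45, 0.43 and 0.40.

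In the core, 0 of the 7 alpha ring genes were called under 7378K. Means were higher in 5 of 7, with a median difference of 0.10, and other probe sets of Psma5, Psma6 and Psma7 lay below control. Psma6 read 12.02, 12.03 and 12.31 in controls and 12.51, 12.52 and 12.54 under 7378K. The ranges did not overlap, and the difference of 0.40 (95% confidence interval 0.06 to 0.74) had an adjusted p of 0.16. Psma5 read 11.60, 11.51 and 11.39 in controls and 11.87, 11.70 and 12.00 under 7378K, 0.36 higher (adjusted p = 0.18). Psma4 was the lowest alpha gene, at -0.32 (adjusted p = 0.20), and Psma1, Psma2, Psma3 and Psma7 lay between -0.19 and 0.18. The 4 structural beta genes, Psmb1 to Psmb4, which carry no active site in the mature core, ranged from -0.25 for Psmb3 to 0.28 for Psmb4. The other probe set of these genes read 0.43 for Psmb3 and -0.19 for Psmb4.

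The 3 catalytic subunits differed from each other. Psmb7, which carries the trypsin-like site, read 11.39, 11.43 and 11.51 in controls, 10.77, 11.30 and 10.71 under 2954K and 10.87, 11.01 and 10.71 under 7378K. Every LED array lay below every control array, and the difference was -0.58 (-0.90 to -0.26, adjusted p = 0.053) under 7378K and -0.52 (-0.84 to -0.19, adjusted p = 0.15) under 2954K. Psmb5, which carries the chymotrypsin-like site, read 11.43, 11.53 and 11.61 in controls, 11.32, 11.51 and 11.58 under 2954K and 11.21, 11.34 and 11.23 under 7378K. Its 7378K arrays lay below all controls, by 0.26 on average (adjusted p = 0.16), while its 2954K arrays overlapped them. Psmb6, which carries the caspase-like site, read 11.72, 11.65 and 11.82 in controls, 11.68, 11.62 and 11.80 under 2954K and 11.71, 11.74 and 11.83 under 7378K. Its groups overlapped, and its difference under 7378K was 0.03, with an interval from -0.17 to 0.23.

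The ATPase ring of the base split evenly, with 3 genes higher and 3 lower under 7378K. Psmc2 read 12.21, 12.05 and 12.25 in controls and 12.66, 12.62 and 12.59 under 7378K. Psmc4 read 12.35, 12.27 and 12.25 in controls and 12.82, 12.74 and 12.60 under 7378K. Both lay above control on all 3 arrays, by 0.45 (adjusted p = 0.087) and 0.43 (adjusted p = 0.077). The other probe set of Psmc4 read -0.15. Those of Psmc2 read -0.25 (mean signal 11.98) and 0.44 (mean signal 6.03). Psmc5, Psmc1 and Psmc6 lay below control on all 3 arrays, by -0.45, -0.31 and -0.29 (adjusted p = 0.091, 0.15 and 0.077), and Psmc3 differed by 0.07 with overlapping groups. The non-ATPase subunits of the base were all lower: Psmd1 and Psmd2, the large scaffolds, at -0.37 and -0.30 (adjusted p = 0.065 and 0.11), and Psmd4, a receptor for ubiquitin chains, at -0.28 (adjusted p = 0.21). Psmd4 read 11.35, 11.43 and 11.64 in controls, 11.09, 11.07 and 11.49 under 2954K and 11.17, 11.23 and 11.18 under 7378K, so its 7378K arrays lay just below the controls and its 2954K arrays overlapped them.

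The lid held both the lowest gene and some of the higher ones. Psmd7, the partner of the deubiquitinating subunit Psmd14, read 9.96, 10.28 and 9.81 in controls and 8.39, 8.50 and 8.17 under 7378K. All 7378K arrays lay below all controls, 1.66 lower on average (-2.93 to -0.40), a 3.17-fold difference with an adjusted p of 0.12. Under 2954K it read 6.92, 10.23 and 9.01, so 1 array lay among the controls and 1 far below every other array. Psmd8 read 11.47, 11.60 and 11.44 in controls, 10.40, 11.38 and 11.20 under 2954K and 10.69, 10.88 and 10.76 under 7378K. It lay below control on every LED array, by -0.72 under 7378K (adjusted p = 0.065). Psmd14 itself read 12.05, 12.01 and 12.25 in controls, 12.38, 11.92 and 12.19 under 2954K and 12.29, 12.33 and 12.24 under 7378K. Its groups overlapped, and it differed by 0.19 (-0.07 to 0.44). Psmd11, Psmd6 and Psmd3 lay above control on all 7378K arrays, by 0.39, 0.28 and 0.20 (adjusted p = 0.17, 0.16 and 0.38). The other probe set of Psmd6 read -0.10, and the others of Psmd11 above the filter read from -0.31 to 0.52. Psmd12 and Psmd13 were at -0.20 and -0.09 with overlapping groups.

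Psmd5, Psmd9 and Psmd10 carry subunit symbols but code for chaperones that help assemble the base and are not found in the finished cap. All 3 lay below control on every 7378K array. Psmd9 read 9.32, 9.37 and 9.27 in controls, 8.05, 9.51 and 8.68 under 2954K and 8.47, 8.42 and 8.40 under 7378K. It was 0.89 lower under 7378K (-1.49 to -0.29, adjusted p = 0.091), and among the 2954K arrays it was highest on the second and lowest on the first. Psmd10 read 8.97, 9.36 and 9.0 in controls, 8.99, 9.09 and 8.97 under 2954K and 8.58, 8.53 and 8.68 under 7378K. It was 0.51 lower than control under 7378K (adjusted p = 0.072), and its 2954K arrays stayed at the control level. Psmd5 was at -0.25 (adjusted p = 0.20). Other probe sets of Psmd9 read -0.11 and 0.53 under 7378K.

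Whether these genes count as called depended on which arrays set the spread. With the spread taken from the 6 control and 7378K arrays alone, limma called 20 of 34 subunits, 7 risen and 13 fallen, beside 10.6% and 6.46% of all genes. Psmd7 then had an adjusted p of 0.00012. Without array 2954K 1, which takes no part in the 7378K means, 13 were called, 3 risen and 10 fallen, beside 7.12% and 4.76% of all genes. Without 2954K 2, 11 were called, 3 risen and 8 fallen, beside 6.01% and 3.48%, and without 2954K 3 only Psmb7 was called (3.46% of all genes). With the 60th percentile as the filter, Psmb7 alone was called (adjusted p = 0.044, 5.11% of all genes). After quantile normalisation Psmb7, Psmc6 and Psmd1 were called as fallen (4.44% of all genes). Leaving out any 1 control or 7378K array gave 0 subunits called (1.13% to 3.06% of all genes). The count was also 0 with the mean of probe sets, median centring, no filter or no intensity trend. With probe sets without a suffix where a gene had one, it was 0 as well (1.62% to 3.36% over these fits). It was 0 too with either 3' minus 5' measure in the model, beside 1.07% of all genes with Gapdh and beta-actin and 0.603% with dap.

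Under 2954K light, again 0 of 34 subunits were called against control, beside 1.22% of all genes. Means were higher in 16 and lower in 18 (20 and 14 with each array centred on its median), with a median of -0.04 against 0.01 over all genes. At an unadjusted p under 0.05, 4 of 34 were higher and 6 lower, beside 7.61% and 5.44% of all genes. The ranges of 4 lay above control (7.68% of all genes), those of Psma3, Psma7, Psmb4 and Psmc4. Those of 5 lay below it (7.53%), those of Psmb7, Psmc1, Psmc5, Psmc6 and Psmd8. Another probe set above the filter lay below control in each of the 4, at -0.17, -0.08, -0.04 and -0.05. Of the 5, only Psmc6 had others above the filter, at -0.46 and -0.15. The lowest values belonged to Psmd7 (-1.30, adjusted p = 0.37), Psmd9 (-0.57, adjusted p = 0.40) and Psmb7, and the highest to Psma5 (0.41, adjusted p = 0.26), Psma6 (0.39, adjusted p = 0.32) and Psmc2 (0.38, adjusted p = 0.26). Psma5 read 12.22, 11.57 and 11.94, Psma6 read 12.76, 12.09 and 12.68, and Psmc2 read 12.84, 12.22 and 12.59 under 2954K. In each of the 3 genes the second array lay within the control range and the first lay highest. Without 2954K 2, limma called 7 subunits: Psma5, Psma6 and Psmc2 had risen (4.6% of all genes) and Psmb7, Psmd7, Psmd8 and Psmd9 had fallen (2.41%).

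Between the LED groups, 0 of 34 subunits were called and 0% of all genes tested, with 0 subunits higher and 2 lower at an unadjusted p under 0.05, beside 2.51% and 1.56% of all genes. Both were assembly chaperones. Psmd10 was 0.42 lower under 7378K than under 2954K (-0.73 to -0.11, unadjusted p = 0.012 in limma, adjusted p = 0.98), and Psmd5 was 0.27 lower (-0.50 to -0.03, adjusted p = 0.98). Of the 5 subunits whose 7378K arrays lay wholly below the 2954K arrays (3.28% of all genes), the others were Psma7, Psmc6 and Psmd1, and 0 lay wholly above (5.27%). Psmd7 (-0.37, -1.63 to 0.90) and Psmd9 (-0.31, -0.91 to 0.28) followed Psmd10 at the low end. Psmd11 (0.15, -0.19 to 0.49), Psmd3 (0.14, -0.13 to 0.42) and Psmd14 (0.12, -0.14 to 0.38) stood at the high end. Psmd11 read 11.40, 11.24 and 11.38 in controls, 12.01, 11.24 and 11.49 under 2954K and 11.76, 11.70 and 11.73 under 7378K. Psmd3 read 10.59, 10.57 and 10.67, then 10.77, 10.36 and 10.85, then 10.77, 10.85 and 10.80. Both had LED ranges that overlapped each other. The comparisons with control share the control arrays, and both LED comparisons share their LED arrays with this one.

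**Figure D2:**
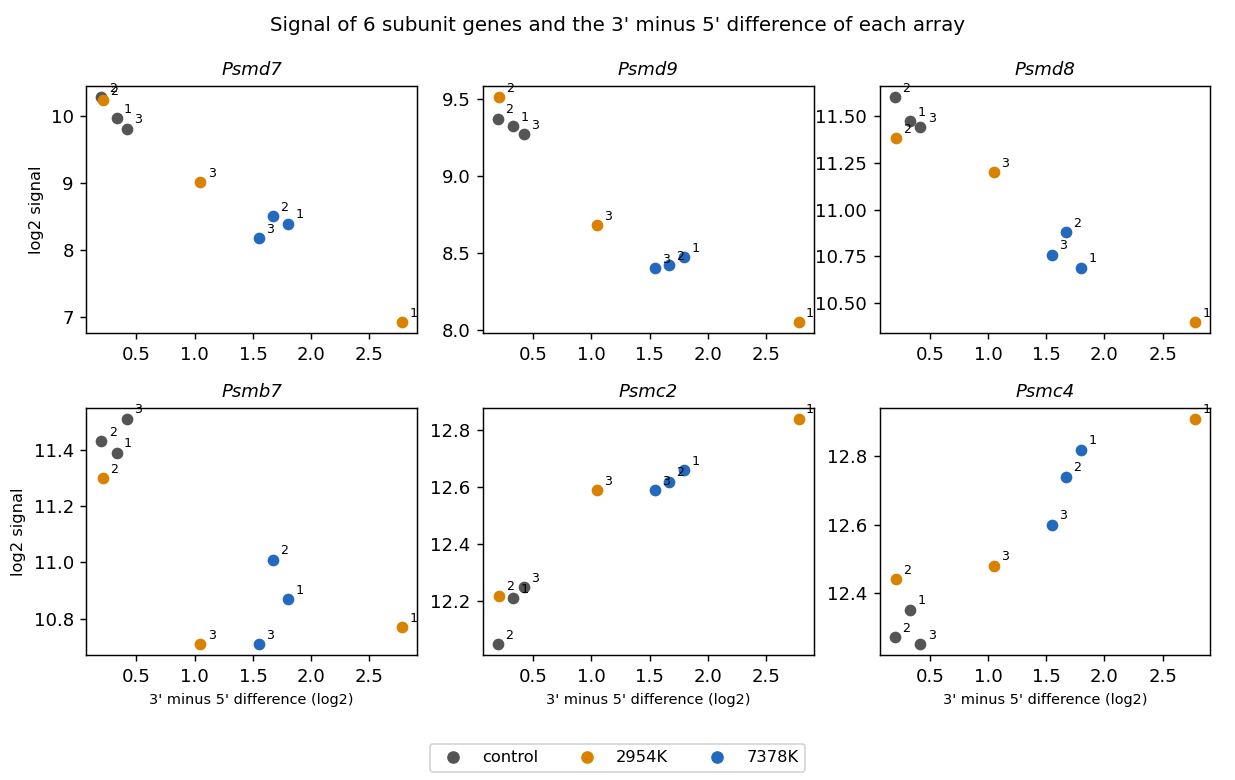
Log2 signal of Psmd7, Psmd9, Psmd8, Psmb7, Psmc2 and Psmc4 on each of the 9 arrays against the array's 3' minus 5' measure (log2); points are single arrays, coloured by group and numbered by replicate. Psmd7 runs from 10.23 on 2954K 2, at a difference of 0.21, to 6.92 on 2954K 1, at 2.78, and Psmc2 runs the other way, from 12.22 to 12.84.

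The 2954K arrays farthest apart in the 3' minus 5' measure, 2954K 1 and 2954K 2, were compared after the values were seen. The difference between these arrays, which had the same light, had the same sign as the difference between 7378K and control in 31 of 34 subunits (91.2%), beside 8827 of 12765 genes (69.2%). The differences share no array. The remaining array, 2954K 3, lay between them in 18 of 34 subunits: 9 were in the order 2, 3, 1 from high to low (26.5%, beside 18.4% of all genes) and 9 in the order 1, 3, 2 (26.5%, beside 23.2%). Over the 34 genes, which share their arrays and are not independent, Pearson's r between them was 0.94 and Spearman's rho 0.90. Without Psmd7, r was 0.92, and over all genes tested it was 0.37. The subunits had mean signals of 8.83 to 12.78, while the genes tested began at 5.91, and these sets were not matched for signal. Psmd7 differed by -3.31 between those 2 arrays and by -1.66 between 7378K and control, Psmd9 by -1.46 and -0.89, Psmc2 by 0.63 and 0.45, and Psmc4 by 0.47 and 0.43. Some genes differed less within the 2954K pair than between 7378K and control. Among them were Psmd10 (-0.11 and -0.51), Psmd4 (0.02 and -0.28), Psmc6 (-0.06 and -0.29) and Psmd2 (-0.12 and -0.30).

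**Figure D3:**
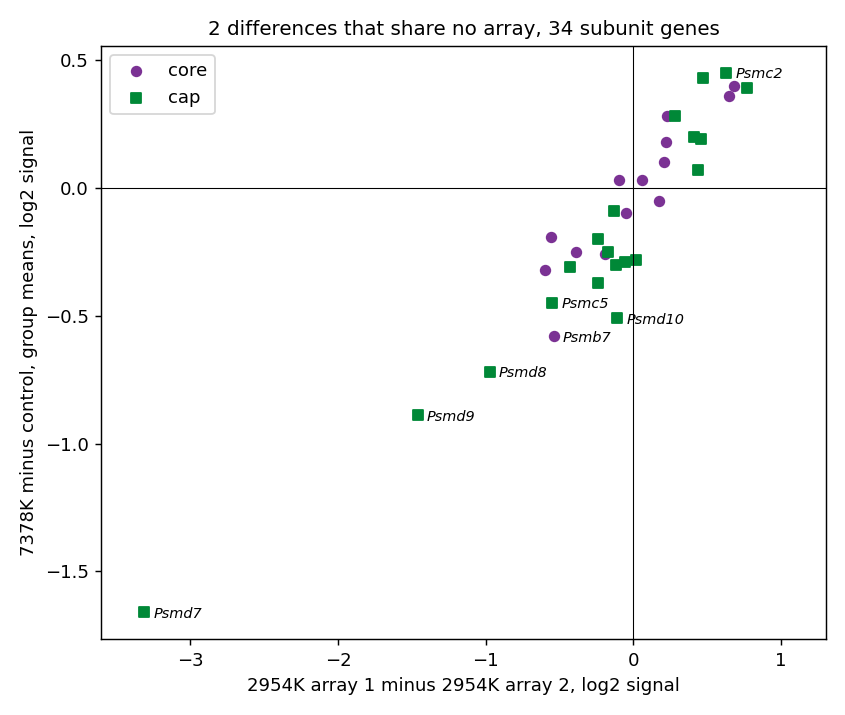
Each of the 34 subunit genes by its difference between arrays 2954K 1 and 2954K 2 (x axis, log2) and its difference between the 7378K and control means (y axis, log2), with core and cap genes marked apart. The points lie along a rising line through 0, with Psmd7 at -3.31 and -1.66 at its lower end.

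With the 3' minus 5' difference of each array in the model, 0 of 34 subunits were called in each of the 3 comparisons, beside 0.799% of all genes for 2954K against control, 1.07% for 7378K against control and 0% between the LED groups. For 7378K against control, 2 subunits, Psmc6 (-0.25, adjusted p = 0.33) and Psmd10, then had an unadjusted p under 0.05. The difference of Psmd7 became 0.04 (-0.41 to 0.50), that of Psmd9 -0.17, that of Psmd8 -0.19, that of Psmc2 0.13 and that of Psmc4 0.17. That of Psmb7 became -0.36 (-0.73 to 0.01, adjusted p = 0.50), and -0.25 (-0.66 to 0.16, adjusted p = 0.75) with the dap measure instead. Psmd10 went from -0.51 to -0.44 (-0.85 to -0.04, adjusted p = 0.42), and to -0.35 (-0.80 to 0.11, adjusted p = 0.67) with dap. The control and 7378K arrays do not overlap in the 3' minus 5' difference, so in that comparison the model separates light from this measure only through the spread within groups, mostly that of the 2954K arrays.

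Core and cap were compared as means over their genes, each gene taken relative to its control mean. Under 7378K, the 14 core genes averaged -0.03 and the 20 cap genes -0.22. By array, the core stood at -0.04, -0.02 and -0.03 and the cap at -0.23, -0.16 and -0.26, so the cap lay below the core on all 3. Under 2954K, the core stood at -0.03, -0.01 and 0.09 and the cap at -0.28, -0.07 and -0.03. The control arrays lay between -0.03 and 0.02 for both. Core minus cap was 0.25 on 2954K 1, the highest of the 9, and 0.15 to 0.23 on the 7378K arrays. Without the 3 chaperones, the cap stood at -0.17, -0.09 and -0.21 under 7378K. These cap means include Psmd7, at -1.66, and a mean without it was not taken. By median over genes, the core stood at -0.02, -0.01 and -0.05 on the 7378K arrays and the 20 cap genes at -0.29, -0.24 and -0.27. The median group difference was -0.20 over the 17 cap genes without chaperones, beside -0.01 in the core. Of the 20 cap genes, 7 lay above control and 13 below. The near-zero core mean was a balance of genes in both directions: 7 of 14 core genes lay above control and 7 below.

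**Figure D4:**
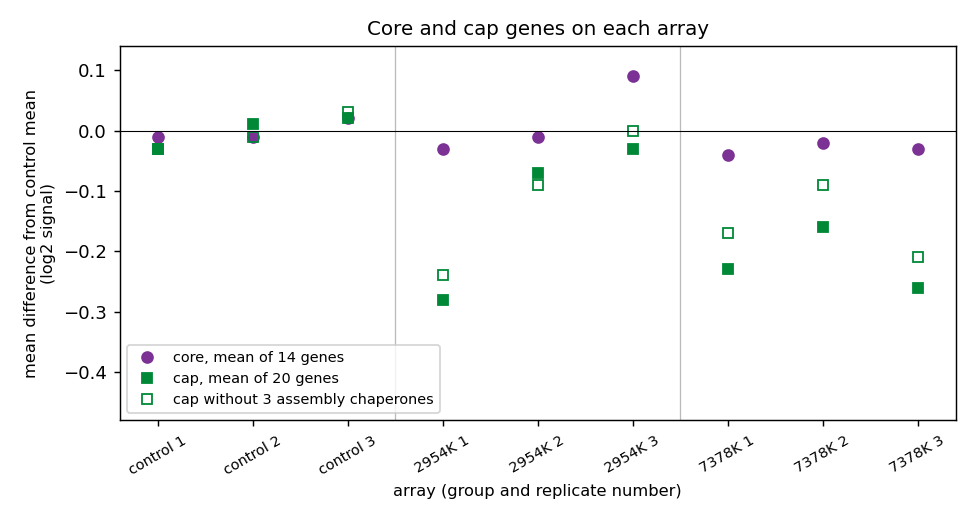
Mean difference from the control mean (log2) of the 14 core genes, the 20 cap genes and the 17 cap genes without assembly chaperones on each of the 9 arrays, 1 point per array and set. The cap lies below the core on all 6 LED arrays, from -0.28 to -0.03, and the core stays between -0.04 and 0.09.

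Other probe sets of the same genes often gave the opposite sign. The 34 genes had 72 probe sets, 64 of them above the filter, and 17 genes had more than 1 above it. In 13 of the 17 (76.5%), probe sets differed in sign for 7378K against control, beside 58.8% of all 5867 such genes, and in 7 (41.2%, beside 22.6%) one was at least 0.2 higher than control and another at least 0.2 lower. These were Psma5, Psma6, Psmb1, Psmb3, Psmc2, Psmd9 and Psmd11. Psmc2 was at 0.45 by its brightest probe set and at -0.25 by another with a mean signal of 11.98. Its remaining set gave 0.44, but with overlapping groups and a mean signal of 6.03, just above the filter. Psmb3 was at -0.25 and 0.43. Psma6 was at 0.40 by its brightest and between -0.20 and -0.06 by its 3 others. Psmd9 gave -0.89, -0.11 and 0.53, the last with all 7378K arrays above the controls. Psmd7 gave -1.66 and -0.38, the latter with overlapping groups and 7378K arrays at 7.69, 8.64 and 8.56. Psmd4 gave -0.28 and -1.22. Psmb7, Psmb5, Psmb6, Psmd8 and Psmd10 had a single probe set. On this array type, a name ending in _a_at marks probes shared by several transcripts of a gene, and one in _x_at marks probes that can also bind unrelated transcripts. Of the 18 chosen probe sets without a suffix, 5 were higher and 13 lower under 7378K, and of the 16 with one, 9 were higher and 7 lower. Fitted one by one over 22657 probe sets, a step added after the values were seen, 0 subunit probe sets were called in any comparison, beside 2.51% of all for 7378K against control.

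**Figure D5:**
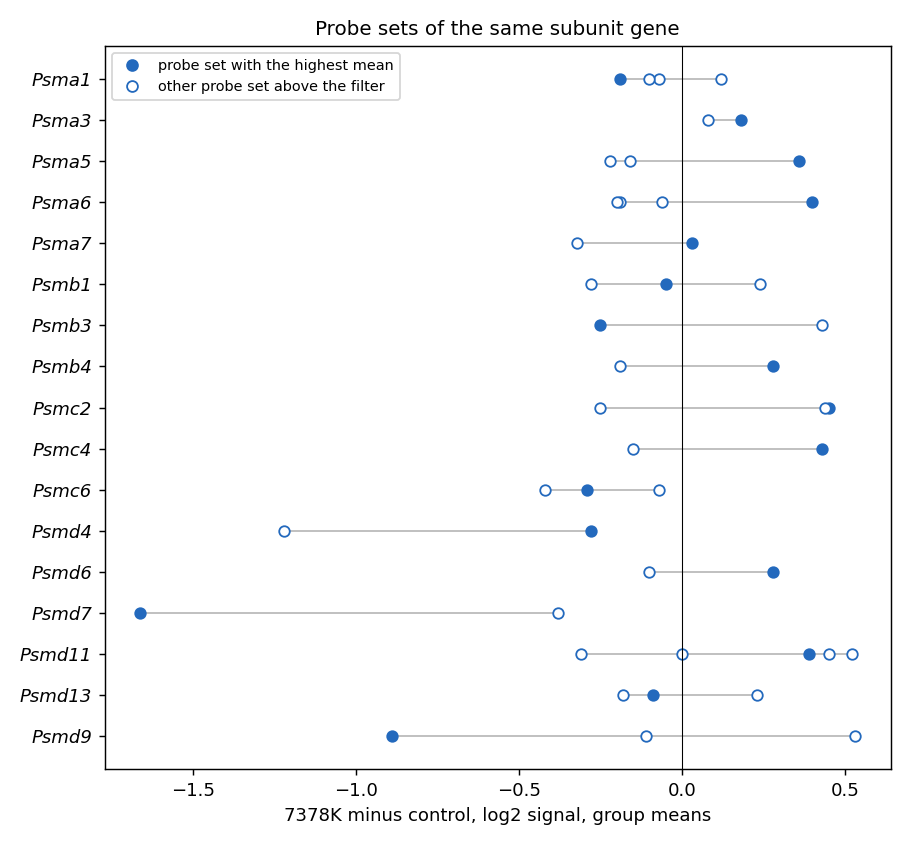
Difference between the 7378K and control means (log2) for every probe set above the filter of the subunit genes that have more than 1 (1 point per probe set; the set used for the gene is marked apart). Points of one gene lie on both sides of 0 in 13 of the 17 genes, among them Psmc2 at 0.45 and -0.25.

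The other genes of the pathway were counted from lists of 42 genes, of which 30 were tested, 2 lay below the filter (the gonad-specific Psma8 and the thymus-specific Psmb11) and 10 were not analysed here. In each of the 3 comparisons 0 of the 30 were called, beside 1.22%, 3.52% and 0% of all genes. Without 2954K 1, 5 were called for 7378K against control: Txnl1 and Rad23b had risen (7.12% of all genes) and Usp14, Sqstm1 and Vcp had fallen (4.76%). The same 5 were called with the 6 arrays of those groups alone (10.6% of all genes risen and 6.46% fallen). Without 2954K 2, Usp14 and Sqstm1 were called there as fallen (3.48% of all genes). Txnl1 was then called as risen for 2954K against control (4.6%). For 7378K against control, Psmb8 was called without 7378K 1 (1.13% of all genes in either direction) and Nsfl1c without control 3 (3.06%). At an unadjusted p under 0.05, 3 of 30 were higher under 2954K and 0 lower (7.61% and 5.44% of all genes), 7 were higher and 3 lower under 7378K (13.8% and 8.81%), and 1 was higher and 0 lower under 7378K than under 2954K (2.51% and 1.56%). The inducible subunits that replace the catalytic ones in the immunoproteasome were all higher in both LED groups. Psmb8, which replaces Psmb5, read 6.27, 6.43 and 6.67 in controls, 7.30, 7.53 and 7.69 under 2954K and 6.65, 7.64 and 7.95 under 7378K. All 2954K arrays lay above the controls, by 1.05 (0.34 to 1.77, adjusted p = 0.19), and the 7378K arrays were 0.96 higher (adjusted p = 0.12) with 1 array inside the control range. Psmb9, which replaces Psmb6, was 0.79 and 0.75 higher (adjusted p = 0.33 and 0.20), with 1 control array at 6.01 and the others at 7.07 and 7.42. Psmb10, which replaces Psmb7, was 0.36 and 0.42 higher (adjusted p = 0.42 and 0.18). Immune cells carry much of these inducible subunits, and the microglial markers rose in the same groups; their part in these values was not tested.

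Regulators and partners varied in both directions. Nfe2l1 read 11.32 ± 0.17 in controls (SD, n = 3), 11.32 ± 0.14 under 2954K and 11.45 ± 0.05 under 7378K, with overlapping groups. Its relative Nfe2l2, a regulator of antioxidant genes, lay above all controls in both LED groups, by 0.42 (adjusted p = 0.20) and 0.32 (adjusted p = 0.18). The core assembly factor Pomp read 11.88 ± 0.14, 11.84 ± 0.12 and 11.80 ± 0.05 (SD, n = 3), and the alternative activator Psme1 read 10.31 ± 0.17, 10.46 ± 0.27 and 10.48 ± 0.08 (SD, n = 3). Under 7378K, Usp14, a deubiquitinase bound to the cap, was at -0.61 (adjusted p = 0.10), Sqstm1, a receptor for tagged proteins, at -0.51 (adjusted p = 0.11), and the unfoldase Vcp at -0.36 (adjusted p = 0.10), each with all arrays below the controls. On the higher side, Txnl1, a thioredoxin-like protein of the cap, was at 0.33 and Rad23b, a shuttle for tagged proteins, at 0.31 (both adjusted p = 0.22), with all arrays above the controls, and Nsfl1c, a cofactor of Vcp, was at 0.45 (adjusted p = 0.18) with overlapping groups. On 2954K 1, Usp14, Sqstm1 and Vcp read 9.71, 10.80 and 12.26, below all their controls, and on 2954K 2 they read 10.59, 11.53 and 12.64.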

How the data were processed

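Retinal RNA of 9 pools was measured on 9 arrays. The deposited log2 signals (45101 probe sets, 0 missing) had been scaled by the authors to a common 2% trimmed mean per array, as the values themselves show; the submitters' processing notes name MAS5 and affy without version or role. They were used without further scaling. Detection calls were not used. With 3 arrays per group, their number sets the precision. The platform annotation gives 1 symbol to 34945 probe sets, several to 932 and none to 9160, besides 64 controls; 18031 of 18193 genes were matched by identifier to RefSeq (GRCm38.p6). Genes below the 40th percentile of probe set means (5.91) were left out.

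A model with group means was fitted over the 9 arrays by limma 3.58.1 in R 4.3.3 (eBayes with an intensity trend; the package data.table, version 1.17.8), with Benjamini-Hochberg adjustment over 12765 genes. The fit was tested on simulated data. Figures used matplotlib 3.10.9, pandas 2.3.3 and numpy 2.4.6. Full values are given for the 3 highest and 3 lowest subunits of each comparison and for Psmb5, Psmb6, Psmb7, Psmd4 and Psmd14; other named genes were singled out after their values were seen. The members and lists were chosen with earlier results of these data known. Group medians and core or cap means carry no test. Alternatives changed the filter, the scaling, the probe set rule, the arrays and the covariates.

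Replicate numbers are called biological in the labels, with no shared litter or day stated, and the fit did not use them.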

Additional observations from a re-analysis of the deposited data

How the results depend on the processing

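The count of subunits called for 7378K against control was 0 in the fit described. It was 20 with the 6 arrays of those groups alone (17% of all genes) and 3 after quantile normalisation (Psmb7, Psmc6 and Psmd1, 4.44%). The 60th percentile filter gave 1 (5.11%). Over fits without 1 array it was 0 to 13, beside 1.13% to 11.9% of all genes. For 2954K against control that range was 0 to 7, beside 0.619% to 7.01%. Between the LED groups it was 0 to 0, beside 0% to 0.227%. With the replicate number as a block, 3 were called (Psmb7, Psmd8 and Psmc4) and all genes called for 7378K against control went from 449 to 638; in the other comparisons 0 subunits were called. Deviations of same-numbered arrays from their group means correlated above 0 in all 9 pairs and above 0.1 in 5 (0.061 to 0.332), those of the 18 other pairs at -0.265 to 0.092, and not every array correlated best with its own number (control 1 at 0.086 with 2954K 1 and 0.092 with 2954K 2); the labels do not say what a number shares.

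For 2954K against control, the median subunit difference of -0.04 was 0.03 with median centring and -0.11 over probe sets without a suffix (-0.10 to 0.01 leaving out 1 array), and core minus cap was 0.07 with the 3' minus 5' covariate, 0.03 over the mean of probe sets and 0.07 without suffixes (0.09 to 0.19). For 7378K against control, the median of -0.15 was -0.03 with the 3' minus 5' covariate, -0.08 with dap, -0.09 over the mean of probe sets, -0.07 with median centring, -0.22 without suffixes and -0.09 without the third arrays (-0.17 to -0.10 leaving out 1 array). Core minus cap there was 0.09, 0.06, 0.09 and 0.14 with the 3' minus 5' covariate, dap, the mean of probe sets and no suffixes (0.17 to 0.21). Between the LED groups, leaving out 1 array gave medians of -0.12 to -0.01 and core minus cap of 0.00 to 0.10. In the fit without suffixes, a gene with no such probe set, such as Psmb5 or Psmd4, kept its brightest one.

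Signs turned as follows, and the cause was not tested. Probe sets without a suffix gave -0.42 for Psma5, -0.14 for Psma6 and -0.12 for Psmc2 under 2954K, and -0.19 for Psma6, -0.25 for Psmc2 and -0.15 for Psmc4 under 7378K. The mean of probe sets gave -0.01 for Psma6 in both LED groups, and between them -0.13 for Psmd11, 0.17 for Psmd4 and 0.02 for Psmd9. Median centring gave 0.02 for Psmb5 and 0.04 for Psmb6 under 2954K, and leaving out the third arrays gave 0.12 for Psmd4 between the LED groups. The 3' minus 5' covariate gave 0.04 for Psmb5 and -0.12 for Psmd14 under 2954K, 0.04 for Psmd7 and -0.05 for Psmd14 under 7378K, and 0.05 for Psmd7 between the LED groups. With dap, Psmd14 was at -0.10 under 2954K; Psma6 at -0.10, Psmb6 at -0.05, Psmc2 at -0.01, Psmd14 at -0.17, Psmd7 at 0.57 and Psmd9 at 0.08 under 7378K; and Psmb7 at 0.12, Psmd11 at -0.13, Psmd14 at -0.07, Psmd3 at -0.02, Psmd7 at 0.84 and Psmd9 at 0.21 between the LED groups.

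Leaving out 1 array turned signs within -0.11 to 0.03 for Psmb5, -0.08 to 0.01 for Psmb6 and -0.05 to 0.18 for Psmd14 under 2954K, and -0.01 to 0.07 for Psmb6 under 7378K. Between the LED groups the ranges were -0.17 to 0.13 for Psmb7, -0.02 to 0.37 for Psmd11, -0.01 to 0.24 for Psmd3, -0.10 to 0.11 for Psmd4, -1.27 to 0.39 for Psmd7 and -0.66 to 0.07 for Psmd9.

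Over the named subunit genes, 574 alternatives kept direction and side of the threshold, 32 passed it and 45 turned sign as listed. Keeping both did not mean a like size: leaving out 1 array gave -2.05 to -0.40 for Psmd7 and -0.96 to -0.23 for Psmd9 under 2954K. The counts of pathway genes moved in 6 alternatives and stayed in 57. Of the counts, medians and core minus cap values, 154 alternatives stayed close to the value reported and 26 did not. Signal over background was not assessed, and 3 pools per group limit what can be detected.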
